A study of Mus musculus with 15 samples.

Results

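The Frizzled receptor family was followed through development of the mouse secondary palate. The members were the 10 Frizzled genes, *Fzd1* to *Fzd10*, which were found in the deposited count table by identifier after its identifiers had been given symbols from the GENCODE annotation. All 10 were present among 54232 genes, and all 10 were among the 22151 genes that passed the filter on low counts. The samples were dissected secondary palates of wild-type (WT) mice at embryonic day 13.5 (E13.5), at E14.5, E15.5 and E16.5, and at birth (P0). No treatment or mutant allele is given for these libraries, and the strain is not stated in the labels. Each stage had 3 libraries of bulk RNA, and each library was made from the palates of 3 embryos pooled together, so the errors below are spreads between pools.

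Frizzled proteins are receptors with 7 membrane-spanning segments that bind Wnt ligands through a cysteine-rich domain outside the cell. With the co-receptors Lrp5 and Lrp6 they pass the Wnt signal to Dishevelled and stabilise beta-catenin, and with Vangl, Celsr and Prickle proteins they set planar cell polarity. Growth and fusion of the palatal shelves are known to require Wnt signalling, and combined loss of *Fzd1* and *Fzd2* in mice is known to cause cleft palate.

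Each of the 10 coding sequences held 1 in-frame copy of the codons for the Dishevelled-binding motif Lys-Thr-x-x-x-Trp, which lies just after the last membrane-spanning segment. The motif was searched on the coding strand as the codon AAA or AAG, then ACN, then any 3 codons, then TGG, and 456 of 21817 mouse coding sequences (2.09%) held it in frame. The stretches below show what the family shares and how its subgroups differ, with the motif in capitals and 12 bases on each side. They are 42 coding bases each, within 1 exon, read 5′ to 3′ from GENCODE M21 transcripts, with positions on GRCm38. The sequence of *Fzd8* is not shown here.

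*Fzd1* (chr5:4755694-4755735, minus strand): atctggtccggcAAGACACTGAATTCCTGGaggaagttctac

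*Fzd2* (chr11:102606361-102606402, plus strand): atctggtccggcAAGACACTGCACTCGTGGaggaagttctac

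*Fzd7* (chr1:59484595-59484636, plus strand): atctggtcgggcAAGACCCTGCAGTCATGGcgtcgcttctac

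*Fzd5* (chr1:64734999-64735040, minus strand): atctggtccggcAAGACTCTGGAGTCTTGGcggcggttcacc

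*Fzd4* (chr7:89408229-89408270, plus strand): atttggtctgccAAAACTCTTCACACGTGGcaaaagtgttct

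*Fzd9* (chr5:135249404-135249445, minus strand): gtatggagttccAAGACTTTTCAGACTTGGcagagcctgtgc

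*Fzd10* (chr5:128602784-128602825, plus strand): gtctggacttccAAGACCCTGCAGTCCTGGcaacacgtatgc

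*Fzd3* (chr14:65212095-65212136, minus strand): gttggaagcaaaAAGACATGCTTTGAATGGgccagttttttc

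*Fzd6* (chr15:39033937-39033978, plus strand): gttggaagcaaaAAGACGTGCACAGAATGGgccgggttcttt

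In these stretches *Fzd1*, *Fzd2* and *Fzd5* shared the 12 bases before the motif, and *Fzd3* and *Fzd6* shared another 12. Among aligned bases of the coding sequences, with gaps left out, the closest pair was *Fzd1* and *Fzd2*, at 82.65% identical. With gaps counted as differences the closest was *Fzd2* and *Fzd7*, at 76.6% against 71.22% for *Fzd1* and *Fzd2*. With gaps left out, values for pairs within subgroups were 78.9% for *Fzd1* and *Fzd7*, 78.6% for *Fzd2* and *Fzd7*, and 76.8% for *Fzd5* and *Fzd8*. They were 72.6% for *Fzd9* and *Fzd10* and 66.7% for *Fzd3* and *Fzd6*. *Fzd4* was taken as a subgroup of its own, and its closest member was *Fzd10*, at 68.9%. Pairs across subgroups reached similar values, such as 72.98% for *Fzd1* and *Fzd5* and 72.05% for *Fzd1* and *Fzd8*. The longest run of bases identical between any pair of member transcripts was 47, between *Fzd1* and each of *Fzd2* and *Fzd7*.

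The positions below are those of the table, and 9 of the 10 are identical in GENCODE M21 on GRCm38. *Fzd1* (ENSMUSG00000044674.6) lies on chromosome 5 from 4753839 to 4758035, *Fzd2* (ENSMUSG00000050288.6) on chromosome 11 from 102604396 to 102608058, and *Fzd7* (ENSMUSG00000041075.8) on chromosome 1 from 59482424 to 59486955. *Fzd5* (ENSMUSG00000045005.9) lies on chromosome 1 from 64730558 to 64737751, and *Fzd8* (ENSMUSG00000036904.5) on chromosome 18 from 9212856 to 9216201, the model that differs in M21. *Fzd4* (ENSMUSG00000049791.4) lies on chromosome 7 from 89404355 to 89413134, *Fzd9* (ENSMUSG00000049551.2) on chromosome 5 from 135248938 to 135251230, and *Fzd10* (ENSMUSG00000081683.5) on chromosome 5 from 128600844 to 128604093. *Fzd3* (ENSMUSG00000007989.7) lies on chromosome 14 from 65192449 to 65262463, and *Fzd6* (ENSMUSG00000022297.15) on chromosome 15 from 39006034 to 39038188. Of the members, *Fzd3* overlapped another gene model on its own strand, *Gm27263*, so its counts are less certain there.

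The libraries held 21470759 to 69019565 fragments assigned to genes, and the members had 238 to 14773 counts in a library. At these depths 3 counts correspond to 0.0435 to 0.140 CPM, read counts scaled to a common library size, far under every member, and this limit covers counting error only. Genes that mark the palatal mesenchyme were detected in all 15 libraries, with *Osr2* at 16.9 to 73.0 CPM and *Pax9* at 23.8 to 94.2 CPM. The E14.5 libraries also held transcripts of other tissues in unequal amounts. In E14.5 replicates 1, 2 and 3 the summed level of 5 choroid plexus markers was 1348, 22.6 and 751 CPM, that of 6 *Hox* genes of the neck and trunk 380, 103 and 25.1 CPM, and that of 7 neural markers 3435, 2433 and 1561 CPM. Counts of members and of Wnt pathway genes called from E14.5 to E15.5 are therefore also given without E14.5 replicate 1.

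Across the 5 stages 7 of the 10 members changed, *Fzd1*, *Fzd2*, *Fzd3*, *Fzd5*, *Fzd7*, *Fzd8* and *Fzd10* (edgeR's quasi-likelihood test over all 15 libraries, with p adjusted by Benjamini-Hochberg and a threshold of 0.05). The share of all tested genes that changed by this test was 59.1%, and 6 members passed without E14.5 replicate 1. *Fzd2* and *Fzd3* had the largest ranges of stage means, 3.32-fold and 5.04-fold. *Fzd4*, *Fzd6* and *Fzd9* did not pass, with adjusted p values of 0.473, 0.371 and 0.107 and ranges of stage means of 1.68-fold, 1.51-fold and 1.78-fold.

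**Figure D1:**
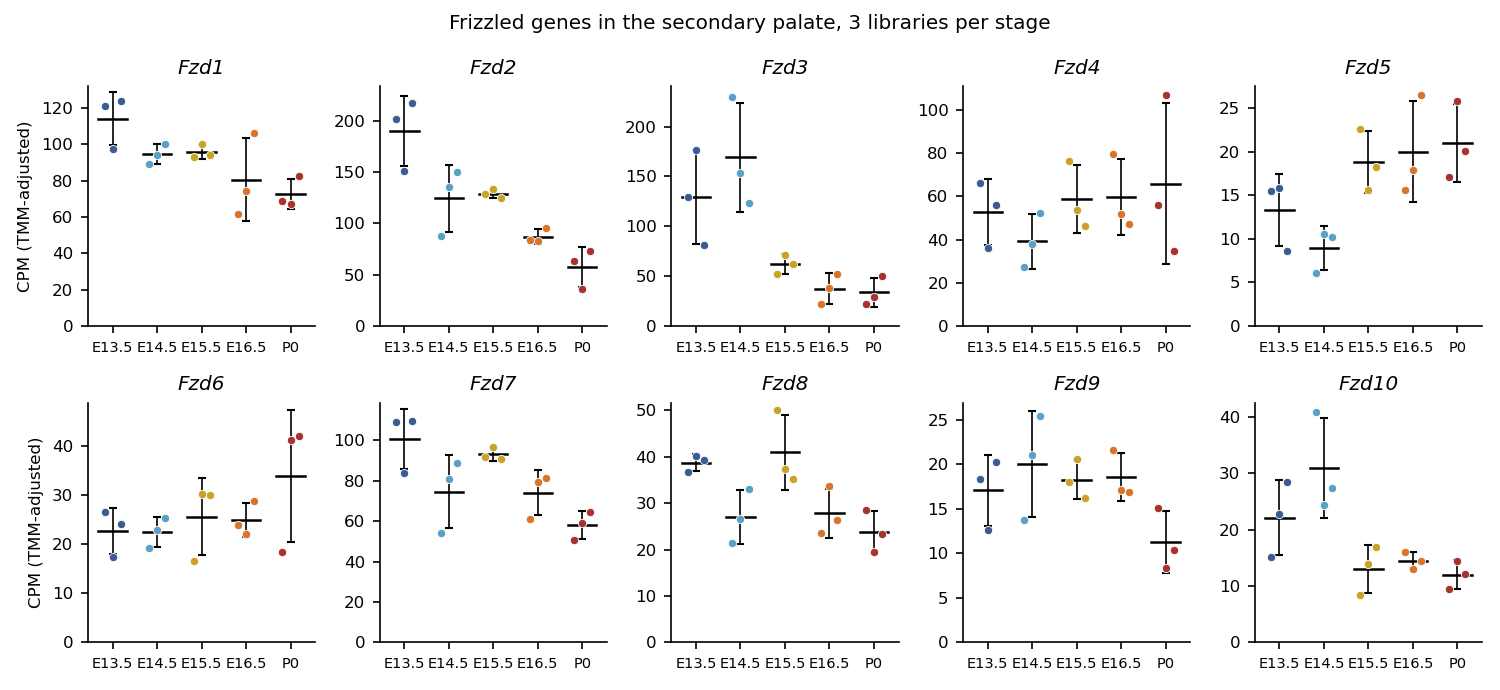
Level of each Frizzled gene in CPM (vertical axes, from 0 and on a separate scale for each gene) at the 5 stages. Points are the 3 libraries of a stage, horizontal bars their mean and error bars 1 SD. *Fzd2* was lowest at P0 and *Fzd5* lowest at E14.5, while *Fzd4* at P0 ran from 34.5 to 107 CPM.

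Levels of different genes were compared after division by gene length, as CPM per kilobase of merged exons. On this scale *Fzd2*, *Fzd1* and *Fzd7* were the 3 highest members in 13 of the 15 libraries, and *Fzd2* was the highest member in 14 of 15. At E13.5 *Fzd2* stood at 51.8 ± 9.41 CPM per kilobase (SD, n = 3), *Fzd1* at 27.1 ± 3.48 and *Fzd7* at 22.2 ± 3.25, and *Fzd8*, next in order, at 11.6 ± 0.543. The libraries of *Fzd2* did not overlap those of *Fzd1* at E13.5, E14.5 or E15.5. Those of *Fzd7* lay above those of *Fzd8* at each of the 5 stages. *Fzd1* and *Fzd7* overlapped at E13.5. From *Fzd8* down to *Fzd6*, neighbours in the E13.5 order (*Fzd8*, *Fzd3*, *Fzd4*, *Fzd9*, *Fzd10*, *Fzd6*) overlapped. *Fzd5* was the lowest at 1.92 ± 0.595 and lay below *Fzd6* in every E13.5 library, and it was the lowest member in 11 of the 15 libraries. At P0 the order was *Fzd1* at 17.4 ± 1.98, *Fzd2* at 15.6 ± 5.26, *Fzd7* at 12.8 ± 1.55, *Fzd4* at 9.79 ± 5.55, *Fzd8* at 7.13 ± 1.34, *Fzd6* at 7.03 ± 2.79, *Fzd9* at 4.91 ± 1.51, *Fzd10* at 3.70 ± 0.769, *Fzd5* at 3.04 ± 0.644 and *Fzd3* at 2.62 CPM per kilobase. Each neighbouring pair in that P0 order overlapped.

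The subgroup of *Fzd1*, *Fzd2* and *Fzd7*, receptors that act in both beta-catenin and polarity signalling, was examined first. *Fzd2* was at 201, 151 and 217 CPM in E13.5 replicates 1, 2 and 3, at 87.5, 135 and 149.9 CPM in the E14.5 libraries, 129, 133 and 125 CPM in those of E15.5, 83.4, 82.4 and 95.5 CPM in those of E16.5 and 63.0, 35.6 and 72.8 CPM in those of P0. All 3 P0 libraries lay below all 12 libraries of the embryonic stages. *Fzd2* fell by 1.73 on the log2 scale from E13.5 to P0 (standard error 0.25, edgeR adjusted p 0.000123). No step between neighbouring stages passed the test for *Fzd2*, although its E14.5 libraries lay below those of E13.5, its E16.5 libraries below those of E15.5, and its P0 libraries below those of E16.5.

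*Fzd1* was at 121, 97.2 and 124 CPM at E13.5, at 89.4, 94.1 and 100.1 CPM in the E14.5 libraries, 93.2, 100.1 and 93.9 CPM in those of E15.5, 61.7, 74.1 and 106 CPM in those of E16.5 and 69.0, 67.1 and 82.4 CPM in those of P0. It was high at E13.5 and level between E14.5 and E15.5, and E16.5 replicate 3 lay above both other E16.5 libraries. From E13.5 to P0 it fell by 0.65 (standard error 0.17, edgeR adjusted p 0.00657), a 1.56-fold change against the 3.32-fold change of *Fzd2*. *Fzd7* was at 109, 83.8 and 109 CPM at E13.5, at 54.1, 81.0 and 88.8 CPM in the E14.5 libraries, 91.6, 96.8 and 90.7 CPM in those of E15.5, 61.2, 79.5 and 81.4 CPM in those of E16.5 and 50.6, 59.2 and 64.5 CPM in those of P0. Its E15.5 libraries all lay above its E14.5 libraries, a difference that did not pass the test (edgeR adjusted p 0.210). *Fzd7* fell by 0.80 from E13.5 to P0 (standard error 0.18, edgeR adjusted p 0.00278), and *Fzd1*, *Fzd2* and *Fzd7* each passed in all 13 alternative analyses of that contrast. Markers of the palatal mesenchyme also fell from E13.5 to P0. The sum of 7 such markers was 768 to 1310 CPM at E13.5 and 379 to 498 CPM at P0. Of the 7 markers 5 fell and 0 rose, beside 26.8% of all tested genes that fell. From E14.5 to E15.5, where the *Fzd7* libraries were all higher, the median sum went from 780 to 747 CPM. In bulk tissue, fewer cells of a type and less RNA per cell cannot be told apart.

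*Fzd5*, a receptor known from eye development, and its close relative *Fzd8* were the 2 members called higher at E15.5 than at E14.5, calls that several alternatives lost. *Fzd5* was at 15.5, 15.9 and 8.56 CPM at E13.5, at 6.04, 10.5 and 10.2 CPM in the E14.5 libraries, 22.6, 15.6 and 18.3 CPM in those of E15.5, 15.6, 17.95 and 26.5 CPM in those of E16.5 and 17.1, 25.9 and 20.1 CPM in those of P0. All E15.5 libraries lay above all E14.5 libraries, and the rise was 1.08 on the log2 scale (standard error 0.30, edgeR adjusted p 0.0217), a call lost in 4 of 14 alternatives, among them those without E14.5 replicate 1 or E15.5 replicate 1 or 3 (0.105, 0.0647 and 0.0558). *Fzd8* was at 36.7, 40.1 and 39.4 CPM at E13.5, at 21.4, 26.6 and 33.1 CPM in the E14.5 libraries, 50.2, 37.5 and 35.3 CPM in those of E15.5, 23.5, 33.6 and 26.4 CPM in those of E16.5 and 28.5, 19.6 and 23.4 CPM in those of P0. Its E14.5 libraries lay below those of both neighbouring stages, and it rose by 0.60 from E14.5 to E15.5 (standard error 0.20, edgeR adjusted p 0.0453). That call was lost in 9 of 14 alternatives, including the 6 libraries alone (adjusted p 0.0840), the replicate number as a block (0.0658) and each single library left out other than E14.5 replicate 3. *Fzd8* fell by 0.70 from E13.5 to P0 (standard error 0.20, edgeR adjusted p 0.0108), a call lost without P0 replicate 2 (-0.56, adjusted p 0.0523). In the same contrast *Fzd5* had a log2 fold change of 0.66 (standard error 0.30) that did not pass (edgeR adjusted p 0.0765), although its P0 libraries all lay above its E13.5 libraries.

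*Fzd3* is known for guiding axons and for planar polarity. It was at 129, 176 and 81.6 CPM at E13.5, at 230.1, 154 and 124 CPM in the E14.5 libraries, 52.3, 71.4 and 62.5 CPM in those of E15.5, 21.8, 38.4 and 52.2 CPM in those of E16.5 and 22.1, 28.9 and 49.7 CPM in those of P0. Every library of E13.5 and E14.5 lay above every later library. It fell by 1.45 from E14.5 to E15.5 (standard error 0.38, edgeR adjusted p 0.0174) and by 1.94 from E13.5 to P0 (standard error 0.39, edgeR adjusted p 0.00116), a 3.85-fold change. Its fall to P0 was larger than that of *Fzd2* in all libraries together, but not without E13.5 replicate 2 (-1.66 against -1.88) or without P0 replicate 1 (-1.68 against -1.77), and the difference between these genes was not tested. Neural markers moved with it in part. The 4 libraries with the highest sums of 7 neural markers, E14.5 replicates 1, 2 and 3 and E13.5 replicate 2, were 4 of the 5 libraries with the highest *Fzd3*. Their sums were 3435, 2433, 1561 and 2181 CPM. At lower sums the 2 measures came apart. E16.5 replicate 2 and P0 replicate 1 had neural sums of 1434 and 1301 CPM with *Fzd3* at 38.4 and 22.1 CPM, and E13.5 replicate 1 had a sum of 1159 CPM with *Fzd3* at 129 CPM. Of the 7 neural markers 2 fell from E14.5 to E15.5, where 13.4% of all tested genes fell, and 1 fell from E13.5 to P0, where 26.8% did. No neural marker rose in either. The marker count was not made without E14.5 replicate 1. How much of the fall of *Fzd3* lay in neural cells was not tested.

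*Fzd10*, which is close to *Fzd9* in sequence, also fell at E15.5. *Fzd10* was at 15.2, 22.7 and 28.4 CPM at E13.5, at 40.9, 24.4 and 27.4 CPM in the E14.5 libraries, 8.38, 13.8 and 16.8 CPM in those of E15.5, 16.04, 13.03 and 14.5 CPM in those of E16.5 and 9.49, 14.5 and 12.1 CPM in those of P0. The E14.5 libraries all lay above those of E15.5, and the fall was 1.25 on the log2 scale (standard error 0.30, edgeR adjusted p 0.0106). From E13.5 to P0 it fell by 0.88 (standard error 0.30, edgeR adjusted p 0.0228), a call lost without E13.5 replicate 2 or 3 or P0 replicate 1 or 3 (adjusted p 0.0526, 0.0921, 0.0973 and 0.0585). Like *Fzd3*, *Fzd10* was highest in E14.5 replicate 1, the library with the highest sum of neural markers. Elsewhere the 2 measures came apart. *Fzd10* was next highest in E13.5 replicate 3, at 28.4 CPM, and that library had the lowest neural sum, 690 CPM. E13.5 replicate 2 had a neural sum of 2181 CPM with *Fzd10* at 22.7 CPM. The part of neural cells in the level of *Fzd10* was not tested. *Fzd9* did not follow *Fzd10*. It was at 18.3, 12.6 and 20.3 CPM at E13.5, at 13.7, 21.1 and 25.5 CPM in the E14.5 libraries, 18.02, 20.6 and 16.2 CPM in those of E15.5, 21.6, 17.2 and 16.9 CPM in those of E16.5 and 15.1, 8.35 and 10.4 CPM in those of P0. E14.5 replicate 1, the highest library of *Fzd10* at that stage, was the lowest of *Fzd9*. The log2 fold change of *Fzd9* from E13.5 to P0 was -0.60 (standard error 0.27, edgeR adjusted p 0.0730). It passed without E13.5 replicate 2 (-0.79, adjusted p 0.0369) and without P0 replicate 1 (-0.83, adjusted p 0.0301).

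**Figure D2:**
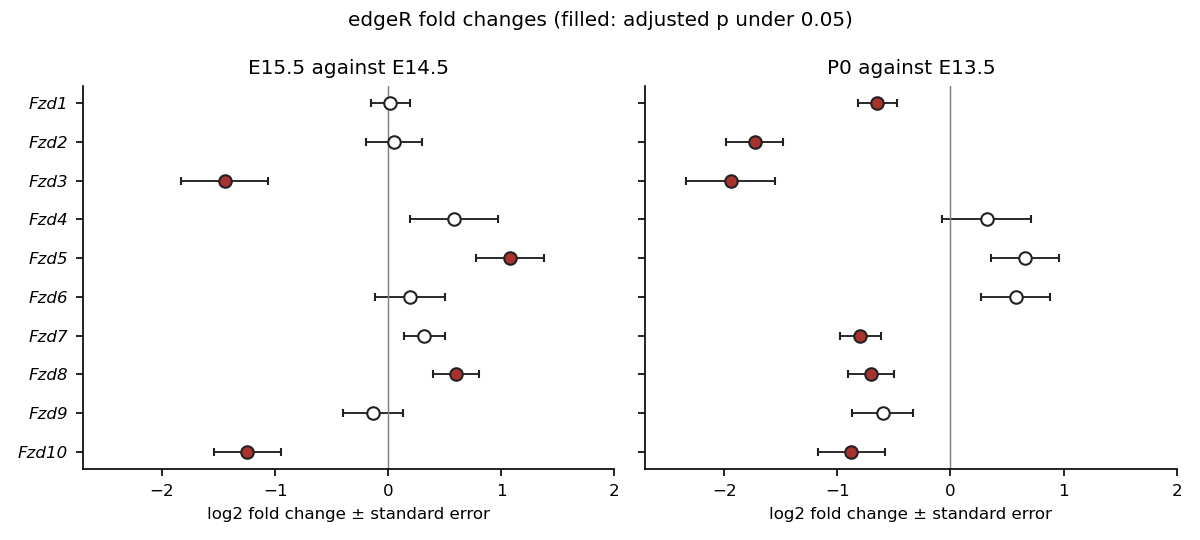
Log2 fold changes from edgeR (horizontal axis) with their standard errors (bars) for the 10 members, from E14.5 to E15.5 on the left and from E13.5 to P0 on the right. Filled points have an adjusted p under 0.05. On the left *Fzd5* and *Fzd8* lie above 0 and *Fzd3* and *Fzd10* below it, and on the right all 6 filled points lie below 0.

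*Fzd4* is the receptor of norrin, encoded by *Ndp*, in blood vessels, and *Tspan12* encodes its co-receptor there. *Fzd4* was at 66.2, 36.0 and 56.1 CPM at E13.5, at 27.2, 38.1 and 52.4 CPM in the E14.5 libraries, 76.2, 53.7 and 46.4 CPM in those of E15.5, 79.7, 51.7 and 47.4 CPM in those of E16.5 and 55.9, 107 and 34.5 CPM in those of P0. Its stages overlapped throughout, and P0 replicate 2 stood apart from the other P0 libraries. From E13.5 to P0 its log2 fold change was 0.32 (standard error 0.39, edgeR adjusted p 0.501), and -0.20 without P0 replicate 2. *Tspan12* was highest in the same library, at 50.4 CPM, and next in E16.5 replicate 1, at 38.4 CPM, where *Fzd4* was second highest. In the other 13 libraries *Tspan12* lay between 12.9 and 22.7 CPM. The sum of 7 endothelial markers was also highest in these 2 libraries, at 707 CPM in P0 replicate 2 and 778 CPM in E16.5 replicate 1, against 322 to 612 CPM in the others. At lower sums the measures came apart. P0 replicate 1 had a sum of 612 CPM with *Fzd4* at 55.9 CPM, and E15.5 replicate 1 a sum of 499 CPM with *Fzd4* at 76.2 CPM. P0 replicate 2 also had the highest choroid plexus sum outside E14.5, 484 CPM. *Ndp* was low, at 1.22 to 5.75 CPM, and lowest in P0 replicate 2. Neither *Ndp* nor *Tspan12* passed in any of the 5 contrasts.

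*Fzd6*, which is known for orienting hair follicles, was at 26.5, 17.4 and 24.2 CPM at E13.5, at 19.2, 22.8 and 25.3 CPM in the E14.5 libraries, 16.6, 30.2 and 30.1 CPM in those of E15.5, 23.9, 22.05 and 28.8 CPM in those of E16.5 and 18.4, 41.2 and 42.0 CPM in those of P0. Its stages overlapped, and the low libraries at E15.5 and P0 were replicate 1 in both. These were also the libraries with the lowest sums of 8 epithelial markers at their stages. The sums were 569 CPM against 1429 and 2082 at E15.5, and 1274 CPM against 2559 and 3383 at P0. E13.5 replicate 2 and E14.5 replicate 1 were also lowest in both at their stages. At E16.5 the sum was lowest in replicate 1, at 1402 CPM, but *Fzd6* in replicate 2, with a sum of 1419 CPM. E13.5 replicate 1 had more *Fzd6* than replicate 3, at a sum of 342 against 640 CPM. The sums were 280 to 640 CPM at E13.5 and 1402 to 2408 CPM at E16.5, stages whose *Fzd6* ranges overlapped. The log2 fold change of *Fzd6* from E13.5 to P0 was 0.58 (standard error 0.31, edgeR adjusted p 0.124), and 0.91 without P0 replicate 1, where it passed (adjusted p 0.0130). The part of epithelium in the level of *Fzd6*, and of endothelium in that of *Fzd4*, was not tested.

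**Figure D3:**
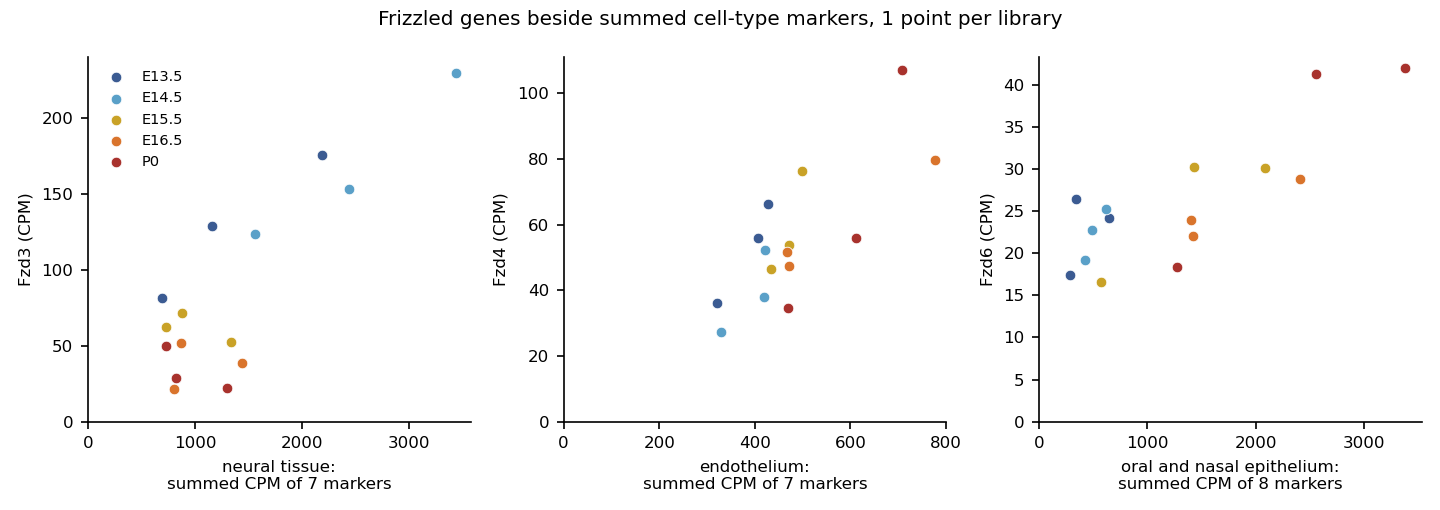
Level of *Fzd3*, *Fzd4* and *Fzd6* in CPM (vertical axes) against the summed CPM of neural, endothelial and epithelial markers (horizontal axes), with 1 point per library coloured by stage. E14.5 replicate 1, with a neural sum of 3435 CPM, had the highest *Fzd3* at 230.1 CPM, and P0 replicate 2, with an endothelial sum of 707 CPM, had the highest *Fzd4* at 107 CPM.

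The contrast of P0 with E13.5 spans the whole series. Of the 10 members 6 fell, 0 rose and 4 did not pass. Among all tested genes 56.6% passed in this contrast, 26.8% lower and 29.8% higher, so the share of members that passed was near that of all genes, and the directions differed. The median log2 fold change was -0.67 over the members and 0.03 over all tested genes. The libraries of P0 and E13.5 did not overlap for 7 members, 6 lower and 1 higher, against 59.1% of all genes. Leaving out single libraries gave 5 to 7 members that passed. *Smo*, the remaining receptor of the Frizzled class and the transducer of hedgehog signals, also fell, from 220.3 ± 38.1 CPM (SD, n = 3) to 132 ± 23.8 CPM (log2 fold change -0.74, edgeR adjusted p 0.00475).

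The step from E14.5 to E15.5 had members in both directions. Of the members 2 rose and 2 fell, against 12.7% and 13.4% of all tested genes (26.1% in all). The median log2 fold change was 0.12 over the members and 0.03 over all genes, and 5 members had libraries that did not overlap, against 51.3% of all genes. These calls rested on few libraries. Without E14.5 replicate 1, 0 of 10 members passed (edgeR, 3 with an unadjusted p under 0.05), while 2320 of all genes did. Without E15.5 replicate 1 the 2 falls passed, and without E15.5 replicate 3 1 fall. The log2 fold changes without E14.5 replicate 1 kept their directions, at -1.17 for *Fzd3*, -1.001 for *Fzd10*, 0.85 for *Fzd5* and 0.45 for *Fzd8* (edgeR adjusted p 0.0860, 0.0571, 0.105 and 0.197). Over all 14 alternatives the adjusted p ran from 0.00254 to 0.185 for *Fzd3*, from 0.000735 to 0.252 for *Fzd10*, from 0.00391 to 0.282 for *Fzd5* and from 0.0145 to 0.199 for *Fzd8*.

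In the other 3 contrasts, each between neighbouring stages, 0 members passed. With edgeR 3 members had an unadjusted p under 0.05 from E13.5 to E14.5 (3538 of all genes), 2 from E15.5 to E16.5 (4830) and 2 from E16.5 to P0 (2602). DESeq2 called 0 in each. The shares of all tested genes that passed were 0.00903%, 1.41% and 0.352%. These 3 contrasts had median log2 fold changes of -0.35, -0.14 and -0.19 over the members.

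The make-up of the family within a library was taken as the share of each member in the summed CPM per kilobase of all 10. The sum was 151.6 ± 16.8 CPM per kilobase (SD, n = 3) at E13.5, 124 ± 14.6 in the E14.5 libraries, 124 ± 4.15 in those of E15.5, 100.1 ± 8.77 in the E16.5 libraries and 84.0 ± 5.28 in those of P0. The share of *Fzd2* was 34.0 ± 2.61% at E13.5 and 18.5 ± 5.93% at P0, and the ranges did not overlap. *Fzd1* made up 17.9 ± 0.344% and 20.6 ± 1.34%, *Fzd5* 1.30 ± 0.497% and 3.62 ± 0.758%, and *Fzd6* 3.09 ± 0.358% and 8.28 ± 3.01%, each with all P0 libraries above all E13.5 libraries. For these 4 members the exact two-sided permutation test gave p = 0.10, the smallest that 3 libraries against 3 allow, and 0.25 after adjustment over the 10 members. The share of *Fzd7* was 14.6 ± 0.599% and 15.2 ± 0.978%, with p = 0.40 by the same exact permutation test. *Fzd1*, *Fzd2* and *Fzd7* together held 66.5 ± 3.45% at E13.5, 58.3 ± 5.11% in the E14.5 libraries, 63.1 ± 1.00% in those of E15.5, 59.1 ± 4.16% in those of E16.5 and 54.4 ± 6.95% at P0. The share of *Fzd4* lay between 4.05 and 6.19% at E13.5 and between 5.73 and 19.1% at P0, ranges that overlapped.

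**Figure D4:**
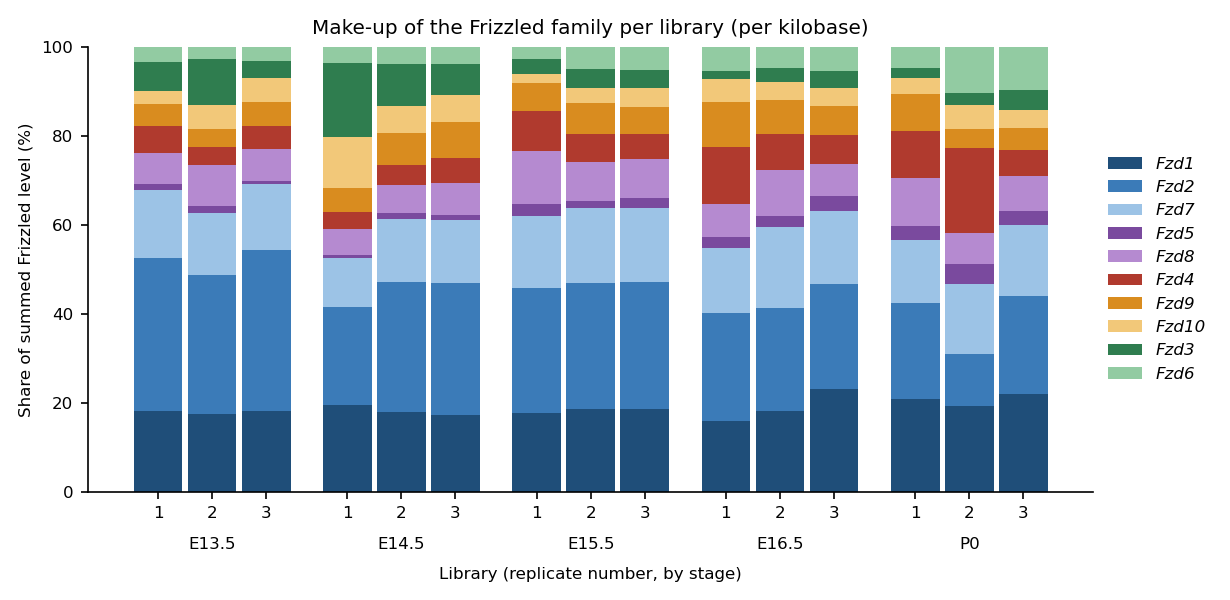
Share of each member in the summed Frizzled level (percent, vertical axis) in each of the 15 libraries, from CPM per kilobase. The blue segments, *Fzd1*, *Fzd2* and *Fzd7*, made up 66.5% on average at E13.5 and 54.4% at P0, and the *Fzd2* segment went from 34.0% to 18.5%.

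The genes around the receptors were taken from lists of the Wnt pathway. Their counts stand beside all tested genes, of which 29.8% rose and 26.8% fell from E13.5 to P0 (56.6% in all), and 12.7% rose and 13.4% fell from E14.5 to E15.5. Among Wnt ligands 3 of 19 tested rose and 3 fell from E13.5 to P0, with a median log2 fold change of -0.04, a smaller share than the 56.6% of all genes. The 19 include *Ndp* and leave out *Wnt8a*, which did not pass the filter on low counts. *Wnt10a* rose from 1.59 ± 1.05 to 8.02 ± 3.16 CPM (SD, n = 3) and *Wnt4* from 28.2 ± 9.91 to 90.8 ± 21.8 CPM, while *Wnt9b* fell from 2.94 ± 1.80 to 0.514 ± 0.387 CPM and *Wnt3*, a ligand needed for facial growth, from 5.28 ± 2.02 to 1.43 ± 0.873 CPM. From E14.5 to E15.5 4 ligands fell and 0 rose, and *Wnt9b* fell by 3.17 on the log2 scale. *Wnt1*, a ligand of the dorsal neural tube, was among them. Its E14.5 level was 0.851 ± 0.829 CPM (SD, n = 3), and its E15.5 mean was 0.0369 CPM. The second value lies under the level of 3 counts in those libraries, so no fold is given.

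Of the 7 co-receptors 3 fell and 0 rose from E13.5 to P0 (median -0.32), and 0 passed from E14.5 to E15.5. *Ror1* fell from 53.9 ± 7.96 to 17.7 ± 8.23 CPM (SD, n = 3) and *Ror2*, a receptor of Wnt5a, from 65.9 ± 15.1 to 35.9 ± 7.82 CPM. Among 9 genes that control the turnover of Frizzled proteins at the cell surface, 1 rose and 3 fell from E13.5 to P0 (median -0.14). *Lgr6*, an R-spondin receptor, rose from 6.83 ± 2.74 to 42.9 ± 10.7 CPM, and it was the 1 member of that list that passed between E14.5 and E15.5, where it was higher. The R-spondins *Rspo2* and *Rspo3* fell from 26.2 ± 8.54 to 7.77 ± 2.58 CPM and from 20.9 ± 3.75 to 6.62 ± 0.873 CPM.

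All 6 tested antagonists that bind Wnt proteins outside the cell, most of them with a domain like that of the Frizzleds, passed from E13.5 to P0, 3 rising and 3 falling, beside 56.6% of all genes. *Sfrp4* rose from 2.47 ± 0.430 to 21.7 ± 11.9 CPM (SD, n = 3) and *Wif1* from 13.3 ± 6.75 to 95.0 ± 49.5 CPM, and both also rose from E14.5 to E15.5, by 1.99 and 1.91 on the log2 scale. *Sfrp2* fell from 406 ± 113 to 144 ± 50.7 CPM and *Frzb* from 56.0 ± 19.7 to 27.5 ± 12.5 CPM. The call of *Frzb* lay close to the threshold (edgeR adjusted p 0.0489), and its E13.5 and P0 libraries overlapped. The list was not tested again with libraries left out in this contrast. From E15.5 to E16.5 *Sfrp2* was the 1 gene of the Wnt lists to pass, and it was named for that after its values were seen. It fell by 1.53 (edgeR adjusted p 0.0492).

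The list of 11 transducers was mostly of genes that act inside the cell, with *Adgra2* and *Reck* of the cell surface. Of the 11, 7 fell and 0 rose from E13.5 to P0 (median -0.60, with 26.8% of all genes lower). Among those that fell were *Dvl3*, a Dishevelled gene, from 149.7 ± 17.8 to 69.4 ± 3.38 CPM (SD, n = 3) and *Apc*, a scaffold of the beta-catenin destruction complex, from 218 ± 69.6 to 95.9 ± 19.5 CPM. From E14.5 to E15.5 3 of the 11 fell, *Apc* by 1.28 and *Gsk3b* by 0.86 on the log2 scale the furthest. Of the 10 genes of the planar polarity core 1 rose and 5 fell from E13.5 to P0 (median -0.64), near the 56.6% of all genes that passed, and 2 rose and 5 fell from E14.5 to E15.5 (median -0.71). *Vangl2* went from 126 ± 32.6 to 31.9 ± 16.4 CPM and *Celsr3* from 104 ± 72.0 to 29.7 ± 10.1 CPM between E13.5 and P0, while *Vangl1* rose from 23.1 ± 4.40 to 36.9 ± 3.15 CPM. Between E14.5 and E15.5 *Celsr3* and *Celsr2* fell by 1.79 and 1.73, and *Prickle3* and *Vangl1* rose by 0.85 and 0.61. *Celsr2* and *Celsr3* are also expressed in neurons.

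Among 11 genes of the Wnt response 2 rose and 6 fell from E13.5 to P0 (median -0.74), beside 29.8% and 26.8% of all genes. *Lef1* fell from 37.3 ± 14.5 to 9.18 ± 6.01 CPM (SD, n = 3) and *Sp5* from 3.19 ± 1.29 to 0.945 ± 0.811 CPM. *Notum*, a secreted enzyme that inactivates Wnt proteins, rose from 2.89 ± 1.39 to 14.8 ± 6.02 CPM and *Tcf7* from 14.4 ± 4.62 to 46.6 ± 20.6 CPM. Both rises also passed from E14.5 to E15.5, by 1.24 and 1.52 on the log2 scale, and 0 genes of the list fell there. The long contrast and the step from E14.5 to E15.5 share no library. They come from 1 fit over all 15 libraries, with shared scaling and spread, so they are not independent tests.

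The calls in the Wnt lists from E14.5 to E15.5 also rested on E14.5 replicate 1. Over the 7 lists 7 genes rose and 12 fell with it, and 1 rose and 5 fell without it, of 73 tested (edgeR, an alternative chosen after seeing the data). The 73 count *Rnf43* and *Znrf3* in 2 lists each. Of the genes named for that step, *Wnt1*, *Wnt9b* (-3.16, adjusted p 0.0225) and *Sfrp4* (1.82, adjusted p 0.0404) still passed. *Lgr6*, *Wif1*, *Apc*, *Gsk3b*, *Prickle3*, *Vangl1*, *Celsr2*, *Celsr3*, *Tcf7* and *Notum* did not, with adjusted p values from 0.0508 for *Lgr6* to 0.192 for *Gsk3b* and log2 fold changes in the same directions.

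The genes most like each member were found by Pearson correlation of log2 CPM over the 15 libraries, among 13538 other genes with a mean of at least 5 CPM. These libraries share their stage and its depth, so any genes that follow the stages correlate, and the values are a description. *Fzd1* was most like the receptor gene *Notch2* (r = 0.961) and *Vcan*, which encodes the matrix proteoglycan versican (0.949). *Fzd2* was most like *Fut10* (0.978) and *Mcm6*, a subunit of the replicative helicase (0.976), and *Fzd7* like the collagen receptor gene *Ddr2* (0.959) and *Nfatc3* (0.955). *Fzd3* was most like *Gm29170* (0.989) and *Vangl2*, of the planar polarity core (0.987). *Fzd4* was most like the fibrillin gene *Fbn1* (0.962) and *Enpp3* (0.918), and *Fzd6* like *Epha1* (0.957) and *Cdcp1* (0.942). The values were lower for *Fzd5* with *Myo10* and *Msn* (0.890 and 0.851), *Fzd8* with *Zfp783* and *Adpgk* (0.895 and 0.894), *Fzd9* with *Xkr8* and *Cnmd* (0.861 and 0.858) and *Fzd10* with *Cyb5b* and *Ube2e1* (0.917 and 0.909). Within the family *Fzd1* and *Fzd2* were the closest pair (0.843), nearly equalled by *Fzd2* and *Fzd7* (0.840). *Fzd2* was the 502nd most similar gene to *Fzd1*. Over the members, the rank of the closest other member ran from 65 (*Fzd7* for *Fzd8*) to 3789 (*Fzd10* for *Fzd3*).

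RefSeq promoter sequences on GRCm38.p6 were matched for 6 members, *Fzd1*, *Fzd4*, *Fzd5*, *Fzd7*, *Fzd9* and *Fzd10*. The 250 bases before the RefSeq start are shown for *Fzd1* and *Fzd7*, which fell together from E13.5 to P0. They are also shown for *Fzd5*, which had a positive fold change there that did not pass. Capitals mark the core of the site bound by TCF and LEF factors, searched as CTTTGA on both strands, which reads TCAAAG on the other strand.

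*Fzd1* (chr5:4758217-4758466, minus strand): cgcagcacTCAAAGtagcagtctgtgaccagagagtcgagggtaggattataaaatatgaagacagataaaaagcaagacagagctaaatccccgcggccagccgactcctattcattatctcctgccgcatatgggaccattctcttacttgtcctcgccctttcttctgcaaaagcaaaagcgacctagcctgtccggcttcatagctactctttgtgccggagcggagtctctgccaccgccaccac

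*Fzd7* (chr1:59481897-59482146, plus strand): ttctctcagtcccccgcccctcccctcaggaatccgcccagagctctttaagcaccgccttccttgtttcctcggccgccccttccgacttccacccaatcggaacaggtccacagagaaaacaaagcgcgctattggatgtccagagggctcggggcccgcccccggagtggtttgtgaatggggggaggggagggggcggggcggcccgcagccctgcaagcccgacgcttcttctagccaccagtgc

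*Fzd5* (chr1:64737751-64738000, minus strand): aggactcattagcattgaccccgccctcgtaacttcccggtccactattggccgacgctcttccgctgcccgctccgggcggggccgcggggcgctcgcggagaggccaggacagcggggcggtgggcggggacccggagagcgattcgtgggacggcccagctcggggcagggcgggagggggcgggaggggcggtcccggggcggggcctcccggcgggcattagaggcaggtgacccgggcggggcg

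Of the 6 windows 1, that of *Fzd1*, held the core, with 1 match, and 13.8% of 32851 mouse promoter windows of this length held it. The RefSeq starts were not all those of the gene models given above. The windows of *Fzd1* and *Fzd7* lay upstream of their models without reaching them. That of *Fzd10* lay inside its model and that of *Fzd9* mostly inside, so the 6 windows are not strictly comparable. The 3 windows shown differed in base composition, with 12 CpG pairs and 51.2% G and C in that of *Fzd1*, 17 and 65.2% in that of *Fzd7*, and 32 and 76.4% in that of *Fzd5*. Of the windows not shown, that of *Fzd10*, called lower at P0 than at E13.5, held 37 and 76.4%. That of *Fzd9* held 42 and 76.4%, and that of *Fzd4* 25 and 72.8%. A relation of base composition to the direction of change was not tested.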

How the data were processed

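Bulk RNA-seq was measured in 15 libraries, 3 at each of 5 stages. Per the file headers, the authors made the deposited counts with featureCounts 2.0.1 as fragments per gene on the reverse strand, against a GENCODE mouse annotation. The submitters' processing notes name cutadapt 3.4, HISAT2 2.2.1, SAMtools 1.12 and the build mm10. The deposited table also gives a merged exon length per gene, with the counts. From these counts, edgeR 4.0.16 (R 4.3.3) was run with TMM scaling, its filter at a minimum count of 10, 1 coefficient per stage over all 15 libraries, the quasi-likelihood F test and Benjamini-Hochberg adjustment over 22151 genes. CPM values are TMM-adjusted. Alternatives were DESeq2 1.42.0, other scalings and filters, the replicate number as a block, the 6 libraries of a contrast alone, and leaving out each library. The edgeR step was tested on simulated data. Shares were compared by exact permutation. The labels do not say whether pools of a stage came from separate litters, so p-values measure the spread between these pools. The members and gene lists were chosen with earlier results of these data known. Named for their changes were all members, and in each pathway list the 2 called genes with the largest change in each direction in the 2 contrasts described, beside *Ndp*, *Tspan12* and *Smo*. Coding sequences came from GENCODE M21 and promoters from RefSeq, and protein sequences were not used here.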

Additional observations from a re-analysis of the deposited data

How the results depend on the processing

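From E13.5 to P0, *Fzd1*, *Fzd2*, *Fzd3* and *Fzd7* passed in all 13 alternatives, and leaving out single libraries gave 5 to 7 members that passed. From E14.5 to E15.5 the number of members that passed ran from 0 to 4 when single libraries were left out, being 0 once E14.5 replicate 1 was dropped. Dropping replicate 1 of E15.5 gave 2 and dropping its replicate 3 gave 1. Without E14.5 replicates 1 and 3 together, an alternative chosen after seeing the data, 0 members passed there (edgeR, 2 with an unadjusted p under 0.05) and 4 changed across the stages. In that alternative the 1 remaining E14.5 library is assumed to vary like those of the other stages. The replicate numbers were not treated as pairs, since the labels give them no meaning and deviations of same-numbered libraries correlated from -0.30 to 0.55. The mean of these correlations was 0.05, -0.07 and 0.20 for replicate numbers 1, 2 and 3. Of the 15 libraries 7 correlated best with a library of their own number. That count was not compared with the one that meaningless numbers would give, so it does not decide whether the libraries were paired. With the replicate block 3 members passed from E14.5 to E15.5, with *Fzd8* lost, and 6 from E13.5 to P0. When single libraries were left out, the log2 fold change of *Fzd4* from E13.5 to P0 ran from -0.20 to 0.66, and the change in share, in percentage points, from -0.918 to 0.292 for *Fzd10*, from -0.297 to 1.58 for *Fzd8* and from -0.158 to 1.81 for *Fzd9*. The change in share of *Fzd10* was 0.253 without E13.5 replicate 2 and 0.232 without P0 replicate 1. With counts not divided by length, the share of *Fzd3* changed by -10.2 and that of *Fzd5* by 3.46 percentage points, since long genes then weigh more. Apart from these, the cause of the changes was not tested. The alternative that takes coding length from proteins was not run.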
